A study of Mus musculus with 18 samples.

Results

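The DNA replication genes described here are 51 genes that copy the genome in S phase, chosen by name from a table of 21761 genes measured in mouse B cells. The list covers origin licensing and its inhibitor, the MCM helicase and the factors that activate it, polymerases and primase, the sliding clamp with its loader and the RPA complex, Okazaki fragment joining, nucleotide supply, chromatin assembly on new DNA, and regulators of S phase entry. RNA was sequenced from 18 libraries of 5000 sorted cells each, 3 libraries for each of 3 cell types in 2 genotypes. Naive B cells (nB, B220+ Fas- GL7-) came from lymph nodes of unimmunized mice. Germinal center B cells (GCB, B220+ Fas+ GL7+ and binding phycoerythrin, PE) also came from lymph nodes, and plasma cells sorted on CD138 (BMPC) came from bone marrow, both 30 days after immunization with PE in complete Freund's adjuvant. Both genotypes shared a B6;129S4 background and carried floxed Dnmt3a and Dnmt3b, the de novo DNA methyltransferase genes, on both chromosomes. Dnmt3-deficient mice were Dnmt3afl/fl Dnmt3bfl/fl with a Cre allele active in the B lineage, which removes exons of the catalytic domains there. Dnmt3-sufficient mice were Cre-negative Dnmt3afl/fl Dnmt3bfl/fl littermates, so genotype and the presence of Cre cannot be told apart. Mice were 8 to 12 weeks old when experiments began, and each GCB sample pooled 2 mice.

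Replication begins when the origin recognition complex, Cdc6 and Cdt1 load the MCM helicase onto origins, a step that geminin (Gmnn) blocks once S phase has started. Cdc45 and the GINS complex turn the loaded MCM ring into an active helicase, primase and DNA polymerases alpha, delta and epsilon copy the strands, and Pcna, loaded by replication factor C, holds the polymerases on DNA. E2F transcription factors drive many of these genes as cells leave the resting state. Naive B cells rest outside the cell cycle, germinal center B cells divide rapidly, and plasma cells leave the cell cycle as they mature.

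Promoter sequence is shown because the E2F family is the best known regulator of these genes. RefSeq windows on GRCm38.p6, reaching from 250 bases before to 50 bases after the start of transcription, were found for 42 of the 51 members. The windows were searched on both strands for 5 E2F words, TTTCCCGC, TTTCGCGC, TTTGCCGC, TTTGGCGC and TTCCCGCC, the first and last of which can overlap, and for CCAAT, the word bound by NF-Y. At least 1 E2F word was found in 20 of the 42 members (47.6%) and in 1206 of all 27025 genes with a window (4.46%). TTTGGCGC was held by 8 members (19.0%, against 0.585% of all genes), TTTCCCGC by 7 (16.7%, against 1.24%), TTTCGCGC by 6 (14.3%, against 0.374%) and TTCCCGCC by 6 (14.3%, against 2.52%), while TTTGCCGC was held by 0 (against 0.507% of all genes). CCAAT was held by 27 members (64.3%, against 41.1% of all genes). Of the members 14 held CCAAT together with an E2F word, a joint count that was not taken over all genes and has no background here. Member windows also had a higher median GC content than all windows (61.3% against 52.7%) and more CpG dinucleotides (median 24 against 7), and the part of base composition in these shares was not tested. The stretches printed here run 5′ to 3′ on the gene's strand, with the searched words in capitals on whichever strand they matched. They are Mcm5 at chr8:75109331-75109538 (plus strand), Mcm6 at chr1:128359690-128359840 (minus), Mcm7 at chr5:138171854-138172073 (minus), Prim1 at chr10:128015175-128015235 (plus), Dtl at chr1:191575520-191575600 (minus) and Cdk2 at chr10:128705067-128705216 (minus). Mcm5 and Mcm6 hold 2 E2F words that overlap on opposite strands, Prim1 and Mcm7 hold an E2F word running into CCAAT, Dtl holds both words close to the start, and Cdk2 holds both although it was among the members that differed least between nB and GCB (2.13-fold).
Mcm5: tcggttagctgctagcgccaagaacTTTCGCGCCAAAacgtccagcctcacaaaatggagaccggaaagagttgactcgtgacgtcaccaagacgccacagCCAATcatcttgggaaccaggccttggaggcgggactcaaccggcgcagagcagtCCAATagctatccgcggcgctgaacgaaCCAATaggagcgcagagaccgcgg
Mcm6: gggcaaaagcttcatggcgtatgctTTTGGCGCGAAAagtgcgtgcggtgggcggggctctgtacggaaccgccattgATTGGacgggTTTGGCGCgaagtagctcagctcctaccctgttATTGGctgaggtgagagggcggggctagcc
Mcm7: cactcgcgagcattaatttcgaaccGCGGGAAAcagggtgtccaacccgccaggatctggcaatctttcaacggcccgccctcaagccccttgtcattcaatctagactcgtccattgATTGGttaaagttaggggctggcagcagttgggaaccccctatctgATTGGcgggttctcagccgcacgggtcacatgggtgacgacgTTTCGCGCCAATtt
Prim1: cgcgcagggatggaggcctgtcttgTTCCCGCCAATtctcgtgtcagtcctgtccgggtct
Dtl: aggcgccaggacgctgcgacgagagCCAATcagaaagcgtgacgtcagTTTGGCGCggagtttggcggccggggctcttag
Cdk2: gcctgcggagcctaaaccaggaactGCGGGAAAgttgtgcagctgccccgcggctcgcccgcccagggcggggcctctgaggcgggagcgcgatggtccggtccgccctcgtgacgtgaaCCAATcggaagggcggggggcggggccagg

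The 18 libraries held between 6692516 and 8987922 reads on genes in nB, between 7644544 and 8903872 in GCB, and between 1355231 and 3803197 in BMPC. Summed FPKM (fragments counted per kilobase of exon and scaled to the library total) of 7 naive markers was 2115 to 2257 in nB and at most 290.2 elsewhere, and that of 7 germinal center markers was 1215 to 1387 in GCB and at most 81.4 elsewhere. Sums over 8 plasma cell markers, among them Jchain, Xbp1 and Sdc1, were 19038 to 51658 in BMPC, 1247 to 1608 in GCB and 332 to 528 in nB, so each cell type matched its label. BMPC libraries also held transcripts of other marrow cells. Erythroid markers (8 of 10 in the table, led by Car1 and Car2) summed to 2629 to 9824 FPKM in BMPC, against 46.4 to 257 for nB and 6.29 to 19.9 for GCB libraries, and 0 of the 8 was at 0 in every BMPC library. Early B cell markers (8, led by Dntt) summed to 344 to 637 FPKM in BMPC, at most 27.2 in nB and at most 1.92 in GCB. Erg was at 0 in every BMPC library, and from 1 to 5 of the 8 were at 0 in any given BMPC library. Neutrophil markers (9) summed to 21.3 to 595 FPKM in BMPC and at most 0.461 in nB and GCB. None was at 0 in every BMPC library, but from 1 to 7 of the 9 were at 0 in any given BMPC library. Macrophage markers (7) summed to 40.5 to 168 FPKM in BMPC, against 10.95 to 19.7 for GCB and 1.70 to 74.0 for nB libraries. Cd68 alone gave 40.5 to 158 FPKM of the BMPC sums. From 5 to 6 of the 7 were at 0 in any given BMPC library, with C1qa and Marco among those at 0 in every one. T cell markers (7) summed to 74.3 to 218 FPKM in BMPC and 60.2 to 154 in the other cell types. Dnmt3a ranged from 2.24 to 5.18 FPKM in nB, from 0.0232 to 0.378 in GCB and from 0 to 3.08 in BMPC, Dnmt3b from 0 to 9.29 over all libraries, and the genotypes overlapped in every cell type, except for Dnmt3b in GCB, where it was 0.744 to 1.10 FPKM in Dnmt3-deficient and 0 to 0.676 in Dnmt3-sufficient libraries. These whole-gene values include exons that Cre leaves in place, so they check nothing about the deletion.

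The first question was how the replication genes differed between resting and germinal center B cells. Most members were higher in GCB. FPKM summed over the 51 members was 983 to 1156 in nB (1080.5 ± 68.0, SD, n = 6) and 6203 to 7086 in GCB (6681 ± 308, SD, n = 6), a ratio of 6.18, with no overlap. Every member was detected in every GCB library, whereas between 1 and 7 members were at 0 in each nB library. All comparisons across genes used limma on log2(FPKM + 1), a scale that understates changes of genes with low FPKM, and a member passed at a Benjamini-Hochberg adjusted p of at most 0.05 over 11522 tested genes and a change of at least 2-fold. All 51 members were among the genes tested. In Dnmt3-sufficient cells 37 of the 51 were higher in GCB and 0 lower, where 7.22% of all tested genes were higher. In Dnmt3-deficient cells 35 were higher and 0 lower, where 6.31% of all tested genes were higher. This main fit shared 1 spread per gene over all 6 groups. BMPC replicates spread most, so calls between nB and GCB also carry the scatter of BMPC. With only the compared groups in the fit, 44 and 42 members were higher and 0 lower. There 2653 and 2561 of all tested genes passed in either direction. The fitted change was positive for all 51 members in each genotype, with a median of 2.85 and 2.66 on the log2 scale beside -0.11 and -0.13 over all tested genes. The 6 GCB libraries lay above the 6 nB libraries for 46 members, against 13.2% of all tested genes, the 5 others being Cdt1, Gins4, Pold1, E2f2 and Ccne1. Fewer dividing cells and less RNA per dividing cell cannot be told apart in bulk samples.

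**Figure D1:**
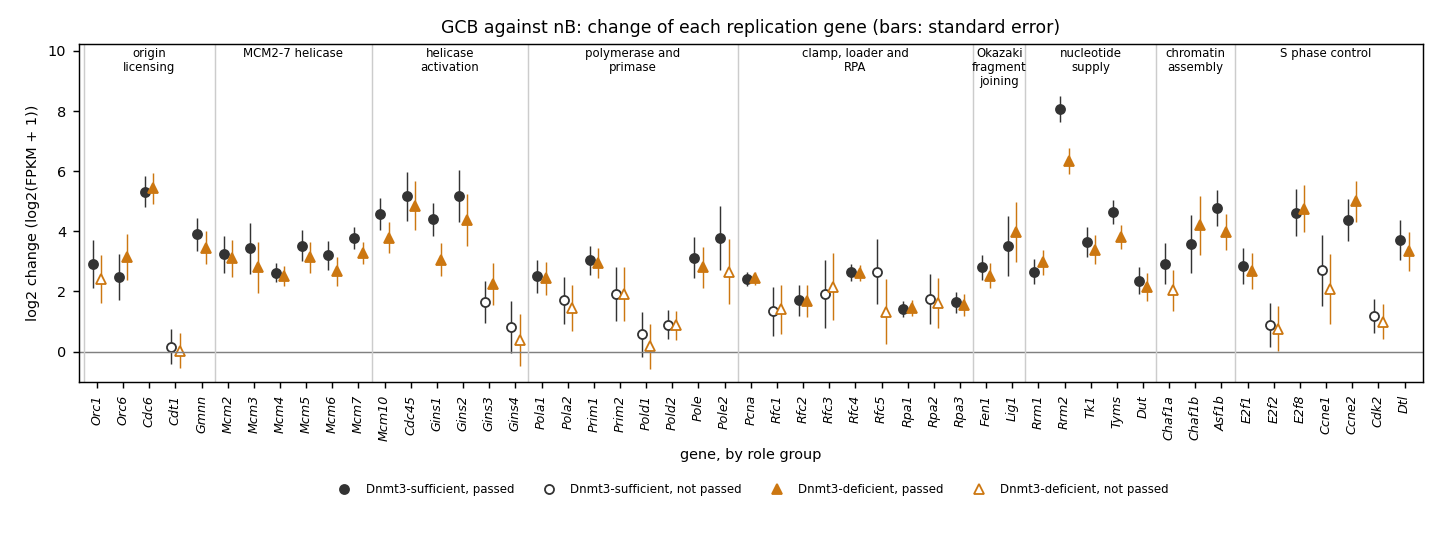
log2 change of FPKM + 1 in GCB against nB for each of the 51 replication genes, grouped by role, in Dnmt3-sufficient and Dnmt3-deficient cells, with filled symbols for members that passed and bars for the standard error. All 51 changes lie above 0 in both genotypes, from 0.17 (Cdt1) to 8.07 (Rrm2) in Dnmt3-sufficient cells.

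The second question was what remained of these transcripts in plasma cells, and the answer ran from near 0 to the full germinal center level. Summed member FPKM was 2638, 3144 and 3460 in the Dnmt3-sufficient BMPC libraries, 44.5% of the GCB mean of that genotype, and 2194, 2040 and 1386 in the Dnmt3-deficient libraries, 29.1% of theirs. All 6 BMPC libraries thus lay below every GCB library and above every nB library in this sum. By member, the mean BMPC level ranged from 3.59% of the GCB level (Cdc45) to 120.2% (Gins1), with a median of 31.8%. In Dnmt3-sufficient cells 26 members were lower in BMPC than in GCB and 0 higher, where 20.9% of all tested genes were lower. In Dnmt3-deficient cells 39 were lower and 0 higher, where 26.1% of all tested genes were lower, and with only these groups in the fit 25 were lower. Median changes of the members were -1.81 and -2.68 on the log2 scale, beside -0.56 and -0.73 over all tested genes. For 27 members all 6 BMPC libraries lay below all 6 GCB libraries, against 18.1% of all tested genes. Because BMPC libraries were shallower, low values there are less certain. Between 0 and 13 members were listed at 0 in each BMPC library. Tbp, 1 of 18 housekeeping genes examined, was likewise listed at 0 in Dnmt3-deficient BMPC replicate 1 and in Dnmt3-sufficient BMPC replicates 1 and 2. BMPC values are therefore given by library or as a range.

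**Figure D2:**
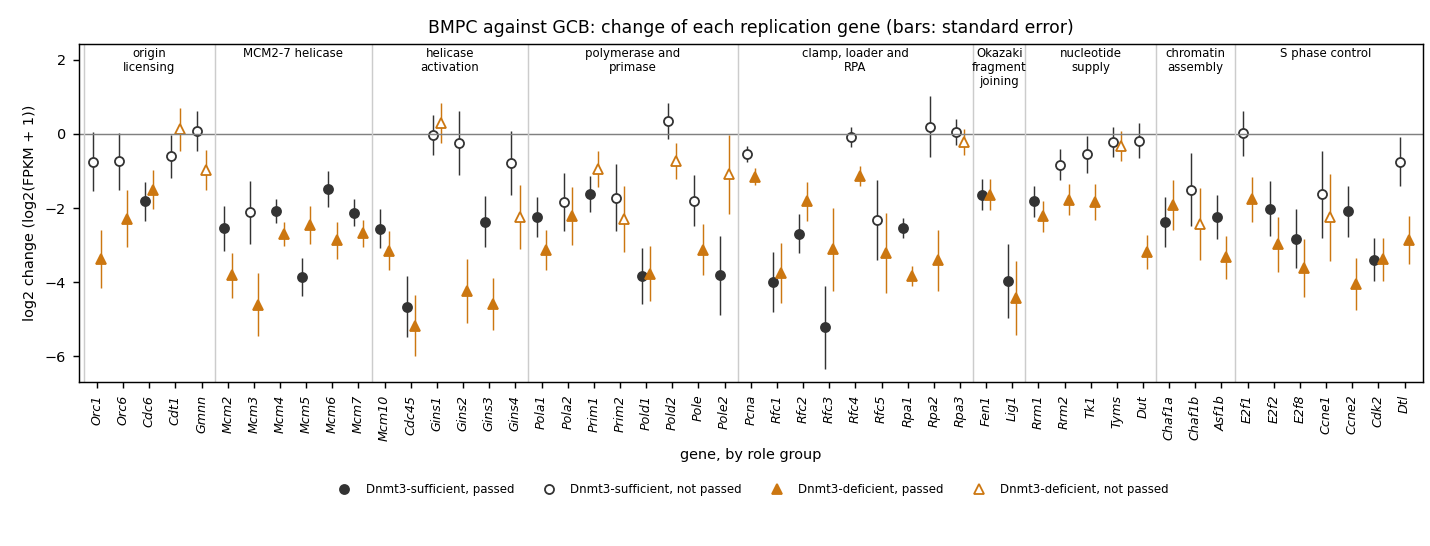
log2 change of FPKM + 1 in BMPC against GCB for each of the 51 replication genes, grouped by role and genotype, with filled symbols for members that passed and bars for the standard error. Members lie between -5.22 (Rfc3) and 0.36 (Pold2) in Dnmt3-sufficient cells, and those that passed all lie below 0.

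Against naive B cells, the same nB libraries as in the comparison with GCB, plasma cells had members on both sides. Among Dnmt3-sufficient samples 21 members were higher in BMPC than in nB, where 9.74% of all tested genes were, and 5 were lower, where 27.6% of all tested genes were. Among Dnmt3-deficient samples 10 were higher, against 6.85% of all tested genes, and 6 were lower, against 30.6%. All 6 BMPC libraries were above all 6 nB libraries for 8 members (Cdc6, Gmnn, Gins1, Pcna, Rfc4, Rpa3, Rrm2 and Tyms), against 6.01% of all tested genes. They were below all 6 nB libraries for 4 members (Pold1, Rfc1, Rpa1 and Cdk2), against 18.8% of all tested genes. Beside these comparisons, erythroid markers summed to 2629 to 9824 FPKM in BMPC and at most 257 in nB, and early B cell markers to 344 to 637 and at most 27.2, and their part in the levels of BMPC was not tested. In mean FPKM, 39 members followed the order GCB, BMPC, nB from high to low, 9 the order GCB, nB, BMPC (Gins3, Gins4, Pold1, Rfc1, Rfc2, Rfc3, Rpa1, E2f2 and Cdk2), and 3 the order BMPC, GCB, nB (Gins1, Pold2 and Rpa3). For those 3 BMPC against GCB passed in neither genotype, so the test did not tell those neighbours in their order apart. For Pold2 GCB against nB did not pass either, although all 6 GCB libraries lay above all 6 nB libraries. The test did not separate every neighbour among the 39 either. BMPC was higher than nB for only 21 and 10 of the 51 members, and the fitted change was positive for 38 and 27. Cdt1, among the 39, passed in no comparison. BMPC against GCB and GCB against nB share the GCB libraries, and their values are set side by side by role in what follows.

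**Figure D3:**
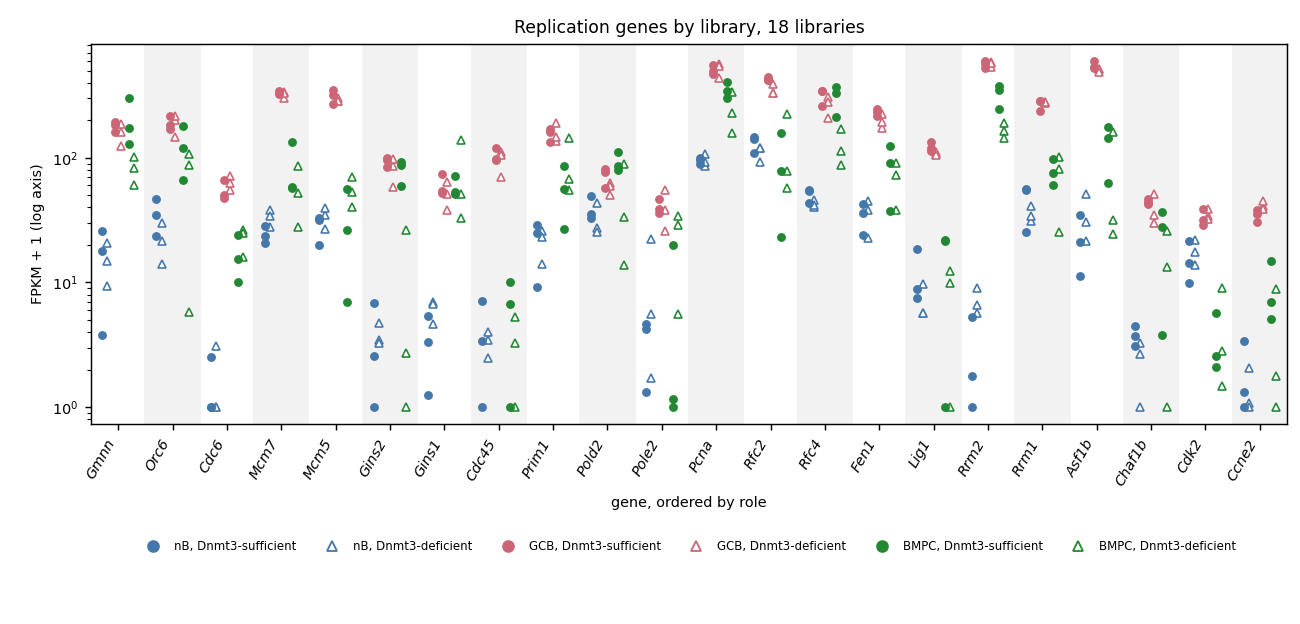
FPKM of the replication genes described in full, on a log axis of FPKM + 1, with a point for each of the 18 libraries, placed by cell type. GCB points cluster tightly, for example between 527 and 598 for Rrm2, while BMPC points scatter, for example between 0 and 9.08 for Cdc45.

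Origin licensing genes were higher in GCB for 4 of 5 members in Dnmt3-sufficient and 3 of 5 in Dnmt3-deficient cells. Geminin (Gmnn), which holds Cdt1 inactive, had 2.77, 15.3 and 24.8 FPKM as lowest, median and highest in nB and 124, 172 and 193 in GCB. In BMPC it had 129, 174 and 304 FPKM in the Dnmt3-sufficient and 82.5, 100 and 59.4 in the Dnmt3-deficient libraries, so BMPC libraries lay above every nB library. Orc6, a subunit of the origin recognition complex, had 13.1, 25.8 and 45.9 FPKM in nB and 146, 191 and 216 in GCB, and BMPC libraries spread widely, at 65.5, 180.0 and 119 for Dnmt3-sufficient and then 87.4, 106 and 4.8 for Dnmt3-deficient libraries, the order used for BMPC values from here on. Cdc6, the helicase loader, was listed at 0 in 4 of 6 nB libraries and reached at most 2.08 FPKM there, against 47.0, 57.7 and 70.4 in GCB. Its fitted change from nB to GCB was 5.32 (SE 0.53, adjusted p = 2.99e-06) and 5.43 (SE 0.53, adjusted p = 2.51e-06) on the log2 scale. Cdc6 had 23.1, 9.0 and 14.5 FPKM in Dnmt3-sufficient and 25.6, 15.1 and 23.8 in Dnmt3-deficient BMPC, between the other cell types without overlap, and was lower than in GCB in both genotypes. Cdt1, its partner in loading, stood apart from the group with 5.47, 8.57 and 12.6 FPKM in nB, 6.37, 9.91 and 12.5 in GCB and 2.52 to 18.4 in BMPC, so the cell types overlapped and no Cdt1 comparison passed. Orc1, the largest subunit of the origin recognition complex, changed by 2.91 and 2.41 from nB to GCB and passed only the former, with 8.39 to 21.9 FPKM in GCB.

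The 6 subunits of the MCM helicase ring, Mcm2 to Mcm7, were all higher in GCB than in nB in both genotypes, with changes of 2.62 to 3.79 and 2.51 to 3.29 on the log2 scale. Mcm7 had 19.9, 27.2 and 37.0 FPKM in nB and 300.2, 331 and 344 in GCB, and Mcm5 had 18.9, 31.2 and 38.4 in nB and 272, 295 and 352 in GCB. Neither gene had overlapping libraries between those cell types. In BMPC Mcm7 had 56.3, 56.8 and 134 FPKM in Dnmt3-sufficient and 27.1, 85.3 and 51.4 in Dnmt3-deficient libraries. Mcm5 in BMPC had 25.4, 5.94 and 55.1 FPKM and then 39.4, 52.1 and 68.6, again far below every GCB library and overlapping nB. All 6 subunits were lower in BMPC than in GCB in Dnmt3-deficient cells and 5 in Dnmt3-sufficient cells, the other being Mcm3 at -2.12. The mean BMPC level was 13.1% (Mcm2) to 23.0% (Mcm6) of the GCB level.

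Factors that activate the helicase split in plasma cells. From nB to GCB, 4 of 6 were higher in Dnmt3-sufficient and 5 of 6 in Dnmt3-deficient cells. Cdc45, which joins MCM and GINS in the working helicase, had 0, 2.42 and 6.14 FPKM in nB and 69.3, 100 and 119 in GCB, a change of 5.17 (SE 0.82, adjusted p = 0.000312) and 4.86 (SE 0.82, adjusted p = 0.000606). In BMPC it was back at 0, 9.08 and 5.66 FPKM in Dnmt3-sufficient and 2.29, 0 and 4.32 in Dnmt3-deficient libraries, overlapping nB. Gins1, a subunit of the GINS complex, behaved otherwise, with 0.258, 4.03 and 5.90 FPKM in nB, 36.8, 52.2 and 72.7 in GCB, and 71.1, 50.6, 52.5, 50.2, 138 and 31.6 in the BMPC libraries, Dnmt3-sufficient ones first. Its BMPC and GCB libraries overlapped and its change between them was -0.02 and 0.30. Gins2 rose from 0, 2.37 and 5.79 FPKM in nB to 57.3, 89.4 and 99.5 in GCB and is described in BMPC with the genotypes below. Mcm10, needed to start the moving fork, was listed at 0 in all 3 Dnmt3-sufficient nB libraries and had 16.1 to 25.6 FPKM in GCB and 0.262 to 7.29 in BMPC. Gins3 had 12.0 to 29.7 FPKM in GCB and was listed at 0 in all 3 Dnmt3-deficient BMPC libraries, and Gins4, at 32.8 to 69.7 FPKM in GCB and 22.8 to 44.0 in nB, did not pass between them.

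Polymerase and primase genes gave the smallest share of calls from nB to GCB. Of 8 members, 4 were higher in GCB than in nB in Dnmt3-sufficient and 3 in Dnmt3-deficient cells, and 4 were lower in BMPC than in GCB in each genotype. Prim1, the catalytic subunit of primase, had 8.18, 23.0 and 28.1 FPKM in nB, 133, 154 and 191 in GCB, and 84.5, 26.0 and 54.7 then 67.0, 143 and 54.3 in BMPC. Its nB and GCB libraries did not overlap, and BMPC reached from the upper nB values into the GCB range. Pole2, a subunit of polymerase epsilon, had 0.321, 3.43 and 21.4 FPKM in nB and 24.8, 37.5 and 54.3 in GCB, and in BMPC 0, 0.152 and 19.1 then 4.59, 28.1 and 33.4, the 2 highest being Dnmt3-deficient libraries. Pold1, the catalytic subunit of polymerase delta, had 41.6, 51.4 and 75.7 FPKM in nB and 54.7, 77.6 and 88.9 in GCB. In BMPC it had only 0.127, 7.78 and 18.9 in Dnmt3-sufficient and 6.84, 5.56 and 0.985 in Dnmt3-deficient libraries. Pold1 was thus lower in BMPC than in both other cell types, by -3.84 (SE 0.75, adjusted p = 0.00105) and -3.77 (SE 0.75, adjusted p = 0.00105) on the log2 scale against GCB. Pold2, its accessory subunit, had 24.6, 33.1 and 48.2 FPKM in nB, 48.9, 60.3 and 81.1 in GCB, and 84.3, 78.9 and 111 then 32.3, 12.8 and 88.5 in BMPC, and passed in no comparison of cell types. Pola1, Pola2, Prim2 and Pole were of low level, with at most 38.8 FPKM in any GCB library.

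Clamp, clamp loader and RPA genes rose least by median, 1.75 and 1.61 on the log2 scale, and 5 of 9 passed in each genotype. Pcna, the sliding clamp, had 84.3, 93.4 and 107 FPKM in nB and 437, 521 and 565 in GCB, with changes of 2.42 (SE 0.23, adjusted p = 1.64e-06) and 2.43 (SE 0.23, adjusted p = 1.55e-06). BMPC kept 344, 408 and 300.5 FPKM of Pcna in Dnmt3-sufficient and 339.7, 228 and 156 in Dnmt3-deficient libraries, all between the 2 other cell types. Subunits of the clamp loader, replication factor C, did not move together in BMPC. Rfc4 had 39.1, 43.3 and 54.5 FPKM in nB and 208, 292 and 344 in GCB, and Dnmt3-sufficient BMPC stayed at 212, 366 and 329. Rfc2 had 92.1, 118 and 147 FPKM in nB and 331, 405 and 444 in GCB, and fell in BMPC to 76.8, 22.0 and 159 then 77.5, 222 and 56.4. Rfc1, the large subunit, had 30.1 to 41.5 FPKM in nB and 84.7 to 109 in GCB but at most 23.6 in BMPC, below every nB library. The single-stranded DNA binding complex RPA showed the same unevenness. Rpa1, its large subunit, had 87.9 to 146 FPKM in nB, against 282 to 318 in GCB, and 14.6 to 62.0 in BMPC, whereas Rpa3, the smallest, had 38.7 to 71.5, 133 to 176 and 76.1 to 254.

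Okazaki fragment joining and nucleotide supply genes all passed from nB to GCB in both genotypes. Fen1, the flap endonuclease, had 21.9, 36.1 and 43.7 FPKM in nB, 173, 221 and 247 in GCB, and 36.6, 123 and 89.2 then 71.3, 89.3 and 37.5 in BMPC. Lig1, which seals the fragments, had 4.71, 7.16 and 17.4 FPKM in nB, 103, 112 and 134 in GCB, and 21.1, 0 and 20.5 then 11.5, 0 and 8.89 in BMPC. Both genes were lower in BMPC than in GCB in each genotype, without overlap. Rrm2 (mm9 chr12:25393106-25399011), the S phase subunit of ribonucleotide reductase, had the widest range of all members, with 0, 4.48 and 7.98 FPKM in nB and 527, 569.9 and 598 in GCB. It changed by 8.07 (SE 0.42, adjusted p = 4.12e-09) and 6.34 (SE 0.42, adjusted p = 4.95e-08) on the log2 scale from nB to GCB. BMPC still held 245, 347 and 378 FPKM of Rrm2 in Dnmt3-sufficient and 162, 188 and 144 in Dnmt3-deficient libraries, all far above nB and below GCB. Rrm1, the large subunit, had 24.4, 36.7 and 55.6 FPKM in nB, 235, 278 and 287 in GCB, and 59.7, 97.1 and 74.3 then 99.7, 80.5 and 24.5 in BMPC. Thymidylate synthase (Tyms) had 1.27 to 4.83 FPKM in nB, but 52.4 to 86.8 in GCB and 36.7 to 81.6 in BMPC, a group in which BMPC overlapped GCB and not nB.

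Chromatin assembly and S phase control followed the general order with exceptions at Cdk2 and E2f2. Asf1b, a histone chaperone of dividing cells, had 10.3, 24.9 and 50.3 FPKM in nB, 488, 523 and 598 in GCB, and 143, 176 and 62.2 then 161, 23.5 and 30.9 in BMPC. Chaf1b, a subunit of chromatin assembly factor 1, had 0, 2.17 and 3.48 FPKM in nB, 29.2, 42.4 and 50.6 in GCB, and 2.80, 35.5 and 26.8 then 25.1, 0 and 12.3 in BMPC. Both were higher in GCB than in nB in each genotype, and Asf1b was lower in BMPC than in GCB in each. Ccne2, cyclin E2, had 0, 0.201 and 2.40 FPKM in nB, 29.6, 37.4 and 43.8 in GCB, and 4.1, 13.7 and 6.0 then 0.761, 0 and 7.82 in BMPC. Its kinase partner Cdk2 had 8.87, 15.0 and 21.0 FPKM in nB and 27.8, 32.2 and 37.8 in GCB, and 4.64, 1.09 and 1.58 then 8.0, 0.470 and 1.83 in BMPC, below every nB library. Cdk2 did not pass from nB to GCB in the main fit (1.18 and 0.99 on the log2 scale), although its libraries did not overlap there. It was lower in BMPC than in GCB by -3.39 (SE 0.58, adjusted p = 0.000326) and -3.38 (SE 0.58, adjusted p = 0.000298). E2f8, a repressor among the E2F factors, went from at most 1.48 FPKM in nB to 25.5 to 33.6 in GCB and 0.190 to 16.7 in BMPC. E2f1, an activator, went from at most 1.16 FPKM in nB to 4.83 to 15.4 in GCB and 0 to 9.31 in BMPC, and E2f2, another activator, changed by 0.89 and 0.76 and did not pass. Dtl, which targets Cdt1 for destruction in S phase, went from at most 1.10 FPKM in nB to 10.4 to 17.6 in GCB.

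Members that did not pass from nB to GCB in at least 1 genotype in the main fit were Cdt1, Gins3, Gins4, Orc1, Pola2, Prim2, Pold1, Pold2, Pole2, Rfc1, Rfc3, Rfc5, Rpa2, Chaf1a, E2f2, Ccne1 and Cdk2. Their fitted changes were all positive, from 0.03 (Cdt1) to 3.77 (Pole2, which passed in Dnmt3-sufficient cells). Median folds of mean FPKM from nB to GCB were 7.23 for the 20 members holding an E2F word in the window and 6.59 for the 22 holding none, with ranges of 1.08 to 96.3 and 1.84 to 145. The holders were also lower in BMPC, at a median of 20.8% of the GCB level against 42.7% for members holding none, and neither difference was tested. The level kept in BMPC also moved with exon length. The 26 members of shorter exon length (638 to 3012 bases) stood at a median of 47.9% of the GCB level and the 25 longer members (3106 to 9188 bases) at 19.7%. Across the 51 members Spearman's rho between exon length and the change from GCB to BMPC was -0.37 and -0.28 in the 2 genotypes, beside -0.18 and -0.14 over all 11522 genes, points that share the same libraries and their depth. The part of length in the order of the members was not tested.

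The third question was whether the loss of Dnmt3a and Dnmt3b altered the replication genes. In nB and GCB it was not detectable in limma. In nB 0 of 51 members passed, where 0.0521% of all tested genes did. The unadjusted p was under 0.05 for 1 member (Rrm2, 1.73, SE 0.42, adjusted p = 0.337) and for 312 of all 11522 tested genes. By voom on recovered reads it was for 3 members. In GCB 0 of 51 passed, where 0% of all tested genes did. The unadjusted p was under 0.05 for 0 members and for 124 of all 11522 tested genes. By voom it was for 4 members, and for 7 with only the GCB libraries in the fit, and both fits also passed 0. Summed member FPKM in Dnmt3-deficient cells was 98.7% of the Dnmt3-sufficient mean in nB, with overlap, and 93.1% in GCB, where the 3 Dnmt3-deficient sums (6203 to 6609) lay below the 3 Dnmt3-sufficient ones (6798 to 7086). For GCB the members' changes had a median of -0.11 on the log2 scale, with 34 of 51 negative.

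In BMPC, summed member FPKM in Dnmt3-deficient libraries was 60.8% of the Dnmt3-sufficient mean, and all 3 libraries lay below all 3 Dnmt3-sufficient ones. The change was negative for 41 of 51 members, with a median of -0.89 on the log2 scale beside -0.05 over all tested genes. The unadjusted p was under 0.05 for 20 of the 51 members and for 2342 of all 11522 tested genes. Lower in Dnmt3-deficient BMPC were 6 members, where 2.65% of all tested genes were lower, and 0 were higher. With only the 6 BMPC libraries in the fit, or with a quality weight for each library, 0 passed, and with voom on recovered reads 2 passed (Rpa2 and Dut). The SEs that follow are from the main fit, whose spread for each gene was shared over all 6 groups. Dut (mm9 chr2:125072926-125084344), the dUTPase that keeps uracil out of DNA, had 12.3, 22.0 and 18.9 FPKM in Dnmt3-sufficient and 0.962, 1.16 and 2.20 in Dnmt3-deficient BMPC. The groups lay well apart, with a change of -2.94 (SE 0.46, adjusted p = 0.00153). Gins2 (mm9 chr8:123102533-123113204), of the GINS complex, had 90.8, 58.5 and 87.1 FPKM against 25.4, 0 and 1.70, a change of -4.24 (SE 0.87, adjusted p = 0.00959). Rpa2 (mm9 chr4:132324247-132334667), the middle RPA subunit, had 133, 136 and 126 FPKM against 33.6, 17.4 and 0, a change of -3.95 (SE 0.83, adjusted p = 0.0112). In both of these genes the Dnmt3-sufficient libraries stood within or above the range of GCB libraries while the Dnmt3-deficient ones included a library at 0. Rfc4 (mm9 chr16:23114016-23127810) had 212, 366 and 329 FPKM against 87.0, 112 and 171, a change of -1.30 (SE 0.27, adjusted p = 0.0104). Rpa1 (mm9 chr11:75111668-75161826) had 39.7, 62.0 and 51.6 FPKM against 14.6, 22.8 and 26.4, a change of -1.24 (SE 0.27, adjusted p = 0.0131). Tk1 (mm9 chr11:117676840-117687406), the S phase thymidine kinase, had 133, 96.0 and 185 FPKM against 104, 24.8 and 18.7, a change of -1.83 (SE 0.49, adjusted p = 0.0443), and was the sole one of the 6 whose genotypes overlapped. Tk1 no longer passed without Dnmt3-deficient replicate 2 or 3, or without Dnmt3-sufficient replicate 1 or 3.

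Without regard to the test, all 3 Dnmt3-deficient BMPC libraries lay below all 3 Dnmt3-sufficient ones for 10 members (Gmnn, Mcm3, Mcm6, Gins2, Rfc4, Rpa1, Rpa2, Rrm2, Dut and E2f1), against 7.31% of all tested genes. The reverse held for 0 members, against 3.02% of all tested genes. Whether the genotype change in BMPC differed from that in GCB was tested as an interaction, in which 0 of 51 members passed, where 0.425% of all tested genes did. Of the members 8 had an unadjusted p under 0.05 in limma, as did 1086 of all 11522 tested genes. By voom 9 members did, and 0 passed. Dut came nearest, with an interaction of -3.01 (SE 0.65, adjusted p = 0.0519). Beside these results, other measures also moved with genotype in BMPC. Reads on genes were 2196198, 3803197 and 3629318 in Dnmt3-sufficient and 1632925, 1355231 and 2265945 in Dnmt3-deficient libraries. Erythroid markers summed to 6619, 6767 and 9824 FPKM against 6523, 3280 and 2629, plasma cell markers to 29689, 24029 and 19038 against 43172, 51658 and 34158, and macrophage markers to 40.5 to 87.7 against 98.4 to 168 (led by Cd68). Early B cell markers summed to 349 to 637 against 344 to 633 and neutrophil markers to 110.5 to 549 against 21.3 to 595. Over 18 housekeeping genes the sums were 15265 to 15930 FPKM in Dnmt3-sufficient and 12933 to 13602 in Dnmt3-deficient libraries, without overlap, with a median change of -0.40 and 12 of 18 changes negative. The part of depth, of these cell types and of the housekeeping genes' shift in the genotype difference was not tested. The spread between replicates was also widest here, with a median SD of the members of 1.27 on the log2 scale in Dnmt3-deficient and 0.79 in Dnmt3-sufficient BMPC, against 0.16 to 0.49 in the other groups.

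**Figure D4:**
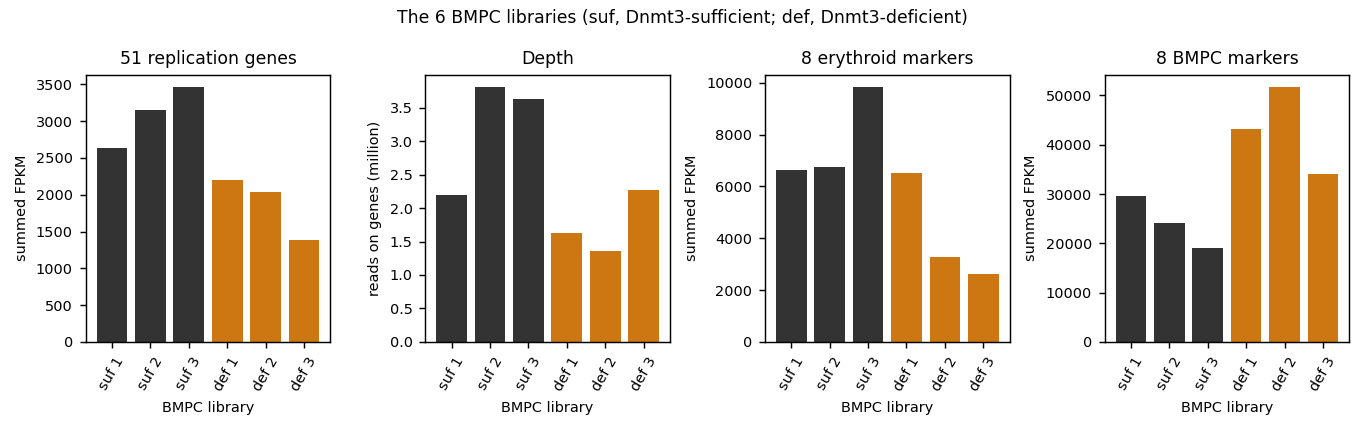
Bars for each of the 6 BMPC libraries giving, from left to right, summed FPKM of the 51 replication genes, reads on genes, summed FPKM of 8 erythroid markers and summed FPKM of 8 plasma cell markers. Replication genes run from 2638 to 3460 in Dnmt3-sufficient and from 1386 to 2194 in Dnmt3-deficient libraries, while plasma cell markers are higher in the latter.

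**Figure D5:**
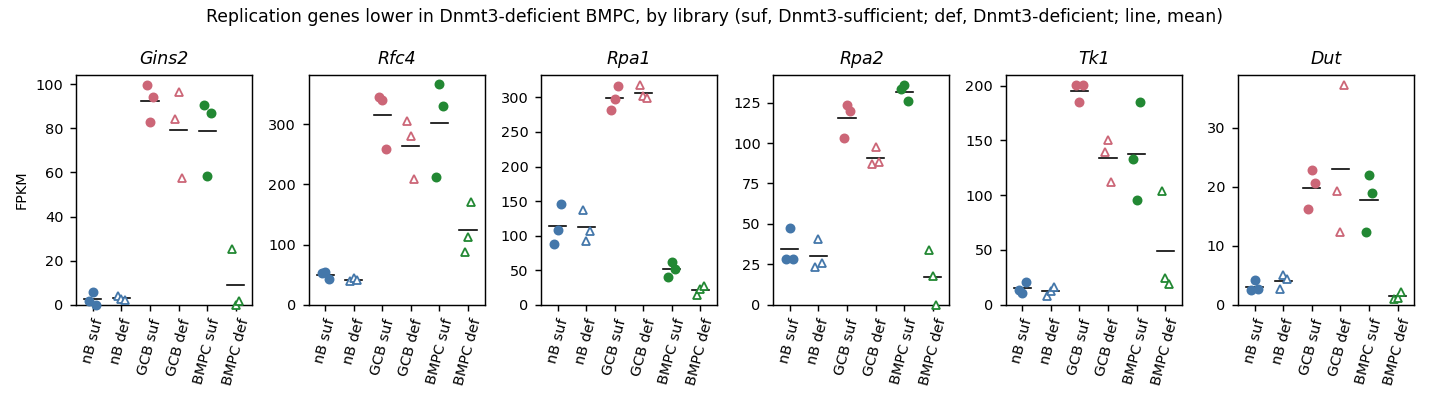
FPKM of the 6 members that passed between genotypes in BMPC, with a point for each of the 18 libraries and a line at each group's mean. In BMPC the 3 Dnmt3-deficient points lie below the 3 Dnmt3-sufficient points for each gene except Tk1.

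Related genes outside the 51 gave context. Of 34 other replication genes, 11 were higher in GCB than in nB in Dnmt3-sufficient and 11 in Dnmt3-deficient cells and 0 lower. Of all tested genes 7.22% and 6.31% were higher. The medians of the 34 were 1.54 and 1.70 on the log2 scale. Uhrf1, which brings maintenance methylation to new DNA, had 0.491, 4.14 and 16.2 FPKM in nB and 152, 169 and 182 in GCB, and fell to 7.68 to 44.8 in BMPC. Slbp, the histone mRNA binding protein, had 68.3 to 118 FPKM in nB, rising to 380 to 440 in GCB, with 89.3 to 273 in BMPC. Of the 34, 14 and 22 were lower in BMPC than in GCB in the 2 genotypes, where 20.9% and 26.1% of all tested genes were. Between genotypes in BMPC 0 of the 34 passed, where 459 of all 11522 tested genes did. The genotype change in BMPC was negative for 25 of the 34, with a median of -0.68. Sums over the 34 did not overlap, at 1027 to 1149 FPKM in Dnmt3-sufficient and 666 to 945 in Dnmt3-deficient BMPC. All 27 mitosis genes were higher in GCB than in nB in each genotype, with medians of 5.43 and 5.21, where 7.22% and 6.31% of all tested genes were higher. In BMPC 21 and 26 were lower than in GCB, where 20.9% and 26.1% of all tested genes were. Summed FPKM of the mitosis genes was 55.2 to 110 for nB, 3164 to 3465 for GCB and 423 to 985 for BMPC libraries. In BMPC 0 of the 27 passed between genotypes, where 459 of all 11522 tested genes did. Of the 27 changes 24 were negative, with a median of -0.62. The sums did not overlap, at 615 to 985 FPKM in Dnmt3-sufficient and 423 to 580 in Dnmt3-deficient libraries. Of 21 other regulators of S phase, 5 were higher in GCB than in nB in each genotype and 1 and 2 were lower. Of all 11522 tested genes 832 and 727 were higher and 799 and 762 lower. The inhibitor Cdkn1b, p27, was among those lower and ran opposite to the replication genes. It had 15.0 to 33.8 FPKM in nB, only 1.02 to 2.56 in GCB, and 14.8 to 41.5 in BMPC. Its changes were -3.16 and -3.36 from nB to GCB and 3.36 and 3.60 from GCB to BMPC, each of which passed.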

How the data were processed

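Messenger RNA of 18 libraries (3 for each cell type and genotype) was amplified with the SMARTer kit and made into libraries with Nextera. As the study's methods and notes describe, the authors mapped reads to mm9 with TopHat and counted them on UCSC KnownGene exons with GenomicAlignments, and the submitters' processing notes also name Picard, edgeR 3.12.1 and R 3.2.2. Values deposited by the authors are FPKM per gene. TopHat kept at most 1 alignment per read and reads overlapping the exons of a single gene were counted, so a read from near-identical copies could be given to either. The strand setting is not given in the sources used here. Another 54 columns hold the authors' own comparisons and were not used.

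Samples were grouped by their labels. The 51 members were matched by symbol, and members and gene lists were chosen with earlier results of these data known. In R 4.3.3, limma 3.58.1 (intensity trend, two-sided) was fitted to log2 values of FPKM plus a pseudocount of 1, with a separate mean for each of the 6 groups, on the 11522 genes that exceeded 1 FPKM in 2 or more libraries. By the study's legends samples came from separate mice in 3 experiments, and which sample belongs to which experiment is not given in the sources used here. All FPKM values (100%) came out as whole reads within 0.001, which gave the read totals and an alternative count test (voom). The fit was tested on simulated data that gave every library the same dispersion, although the BMPC replicates spread more widely than the others. In each role group, values of every BMPC library and the lowest, median and highest of nB and GCB are given for the 2 members of highest mean FPKM and the member changing most between nB and GCB. Members that passed between genotypes, did not pass between nB and GCB, or were not lower in BMPC are named too. Uhrf1, Slbp and Cdkn1b, outside the 51, are examples from their lists and fall under no such rule. Promoters are RefSeq windows of 300 bases on GRCm38.p6. Alternatives were another pseudocount, no filter, another scaling, the compared groups alone, sex, library weights, voom, a replicate block, other thresholds and each replicate left out.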

Additional observations from a re-analysis of the deposited data

How the results depend on the processing

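No member that passed changed direction under any alternative. Members that passed numbered 30 to 46 and 27 to 45 from nB to GCB in Dnmt3-sufficient and Dnmt3-deficient cells, 17 to 26 and 25 to 39 from GCB to BMPC, and 19 to 27 and 11 to 20 from nB to BMPC. The 46 and 45 came with library weights, under which 3259 and 3163 of all tested genes passed. In the main fit 1631 and 1489 of all tested genes did, so these counts moved with the whole table. From GCB to BMPC, 17 passed at an adjusted p of 0.01 in Dnmt3-sufficient cells, and 25 passed with the compared groups alone in Dnmt3-deficient cells. Scaling by the median of ratios moved the median of all genes by 0.10 (26 lower became 24) and 0.18 (39 became 31) in these comparisons and by 0.17 from nB to BMPC in Dnmt3-deficient cells, where 10 higher and 6 lower became 11 and 5. Leaving out 1 replicate gave 0 to 1 members between genotypes in nB (Rrm2, without Dnmt3-sufficient replicate 2).

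Between genotypes in BMPC the 6 members became 0 with the compared groups alone, 0 with library weights, 2 by voom on recovered reads, 2 at an adjusted p of 0.01 (Gins2 and Dut), and 7 to 10 when 1 replicate was left out, with 10 lower without Dnmt3-deficient replicate 1 or 3. Without Dnmt3-deficient replicate 2 these 7 included 2 higher members (Rfc1 and Rfc3), and without Dnmt3-sufficient replicate 3 also 2 (Mcm5 and Pole2). Tk1 was lost with no filter, with the other scaling and with sex in the fit (5 each). In the interaction, 0 became 1 (Dut) with a pseudocount of 0.1 and 1 with no filter on low values, and leaving out 1 replicate gave 0 to 4, with 4 without Dnmt3-deficient BMPC replicate 1, 3 without replicate 3, and 1 without replicate 2 or without any of the Dnmt3-sufficient BMPC replicates. The causes were not tested. Leaving out a replicate kept 2 samples in its group, with the spread shared over all groups.

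Replicate numbers were shared by the GCB samples of both genotypes, and same-numbered samples were also of the same sex. Their deviations from the group means were nearly uncorrelated across genes (0.0257, -8.06e-05 and -0.0171). Such values cannot show whether same-numbered samples were handled together. With the replicate block in GCB, 35 and 32 members passed from nB to GCB and 24 and 34 from GCB to BMPC, and 0 passed between genotypes in GCB or in the interaction. Depth limits BMPC most, where up to 19 members rested on 3 reads or fewer in a library.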
